A study of Mus musculus with 10 samples.

Results

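Epiblast stem cells (EpiSC), cultured pluripotent cells of the post-implantation epiblast, were compared with mouse embryonic fibroblasts (MEF) by RNA sequencing across all genes. The comparison used every library labelled as EpiSC and the library labelled as mouse embryo fibroblasts, 6 of the 10 libraries of the study; the other 4 entered the fit to estimate the spread. These were 2 libraries of EpiLC (epiblast-like cells), 1 labelled p53-negative and haploid and 1 wild-type and haploid, and 2 of embryonic stem cells (ESC), 1 wild-type and haploid and 1 wild-type and diploid. All libraries carry the strain label 129SV. The EpiSC libraries were haEpi1 and haEpi5, labelled p53-negative and haploid, 1 library titled fema (read here as female) and 1 titled male, both labelled wild-type and diploid, and 1 labelled p53-negative and diploid. The MEF library was labelled wild-type and diploid. Single values below follow that order: haEpi1, haEpi5, female, male, diploid p53-KO, and then MEF. The design text speaks of triplicates, whereas each EpiSC line and the MEF gave 1 library here. Nothing in the labels says how the lines were derived or cultured, feeder cells included, or that libraries came from separate cultures, so the p-values rest on library-to-library spread, which may be technical.

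In the mouse embryo the epiblast after implantation is a polarised epithelium held in a primed pluripotent state, in which Oct4, Sox2 and Nanog act together with FGF and Activin/Nodal signals. Fibroblasts are mesenchymal cells that secrete and remodel the collagen-rich matrix of connective tissue and carry the Hox gene code of the body region they came from. MEF cultures are prepared from dissociated embryos and are a standard starting cell for reprogramming to pluripotency, during which the mesenchymal programme is lost and the epithelial programme is gained.

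Total counts ran from 15905966 to 18814003 in the EpiSC libraries, against 18160992 in the MEF library. Levels are CPM, library-size-scaled counts corrected with TMM factors, which were 1.003 to 1.095 in EpiSC and 0.8573 in MEF. Where a library had no read of a gene, the limit was taken as 3 counts (0.149 to 0.185 CPM in EpiSC, 0.193 CPM in MEF), which covers counting error only. No EpiSC pair agreed within sampling noise (lowest chi-square per degree of freedom 23.56). Trp53, the target of the knockout in the labels, stood at 50.1, 61.8, 36.5, 197 and 2.16 CPM in the EpiSC libraries, against 130 CPM in MEF. The haploid lines labelled p53-negative thus lay above the wild-type female library, and the genotypes named here are those of the labels.

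The 4 marker genes separated the cell types as labelled. Pou5f1, which encodes Oct4, had 454, 510, 533, 670 and 431 CPM in the EpiSC libraries, against 0 counts in MEF. Lin28a, whose RNA-binding product blocks maturation of the let-7 microRNAs, had 327, 153, 310, 367 and 439 CPM in EpiSC, against 0 counts in MEF. Neither gene had a read in the fibroblasts, so the difference is at least 11.40 for Pou5f1 and at least 10.69 for Lin28a on the log2 scale. Aspn, which encodes the matrix proteoglycan asporin, had 0.199, 0.403, 0.162, 0.28 and 0 CPM in EpiSC, against 279 CPM in MEF. Col3a1, the gene of the type III collagen chain, had 55.8, 222, 102, 25.1 and 49.6 CPM in EpiSC, against 14970 CPM in MEF. For both matrix genes every EpiSC library lay far below MEF, and for Col3a1 the EpiSC libraries differed among themselves, with haEpi5 highest and the male library lowest. Aspn fell by 10.32 ± 0.61 (log2, SE; adjusted p = 7.89e-05) and Col3a1 fell by 7.36 ± 1.68 (adjusted p = 0.0182) in edgeR's quasi-likelihood test with Benjamini-Hochberg adjustment. The Col3a1 call was lost in DESeq2 (adjusted p = 0.0557) and, in edgeR, without both lines labelled haploid (0.0724), a setting chosen after seeing the data.

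The promoters of the 4 markers, 250 bases before the RefSeq transcription start on the strand of the gene (build GRCm38.p6), are shown because these genes define the contrast. Capitals mark GGGCGG and TATAAA, searched on both strands, which do not overlap each other here and are held by 32.7% and 12.4% of all 32851 promoters of this length. The Pou5f1 promoter (chr17:35505782-35506031, plus strand) holds GGGCGG with its first base 45 bases before the start, and the Lin28a promoter (chr4:134018817-134019066, minus strand) holds neither motif. The Aspn promoter (chr13:49544193-49544442, plus strand) holds TATAAA on both strands, 207 and 178 bases before the start, and the Col3a1 promoter (chr1:45311288-45311537, plus strand) holds it 117 bases before the start.
Pou5f1: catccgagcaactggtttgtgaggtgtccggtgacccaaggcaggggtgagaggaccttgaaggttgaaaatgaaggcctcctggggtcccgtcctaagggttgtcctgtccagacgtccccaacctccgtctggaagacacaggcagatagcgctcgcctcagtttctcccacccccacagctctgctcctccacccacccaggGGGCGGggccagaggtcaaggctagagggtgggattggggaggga
Lin28a: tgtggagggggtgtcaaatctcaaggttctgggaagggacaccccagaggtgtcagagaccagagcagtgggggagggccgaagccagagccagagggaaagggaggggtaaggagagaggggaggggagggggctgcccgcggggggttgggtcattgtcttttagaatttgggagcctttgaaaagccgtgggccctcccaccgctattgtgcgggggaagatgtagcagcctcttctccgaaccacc
Aspn: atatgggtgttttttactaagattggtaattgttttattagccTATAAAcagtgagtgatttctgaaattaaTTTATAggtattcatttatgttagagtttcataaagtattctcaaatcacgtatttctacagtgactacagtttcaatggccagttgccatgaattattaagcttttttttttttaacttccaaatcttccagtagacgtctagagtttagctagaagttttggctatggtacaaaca
Col3a1: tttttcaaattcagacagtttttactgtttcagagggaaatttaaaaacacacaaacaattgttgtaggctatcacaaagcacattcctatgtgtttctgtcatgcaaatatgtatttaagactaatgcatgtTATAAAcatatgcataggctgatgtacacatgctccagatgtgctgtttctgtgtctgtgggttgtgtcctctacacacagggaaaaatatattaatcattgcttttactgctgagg
A match describes these letters only, and no binding was measured.

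**Figure D1:**
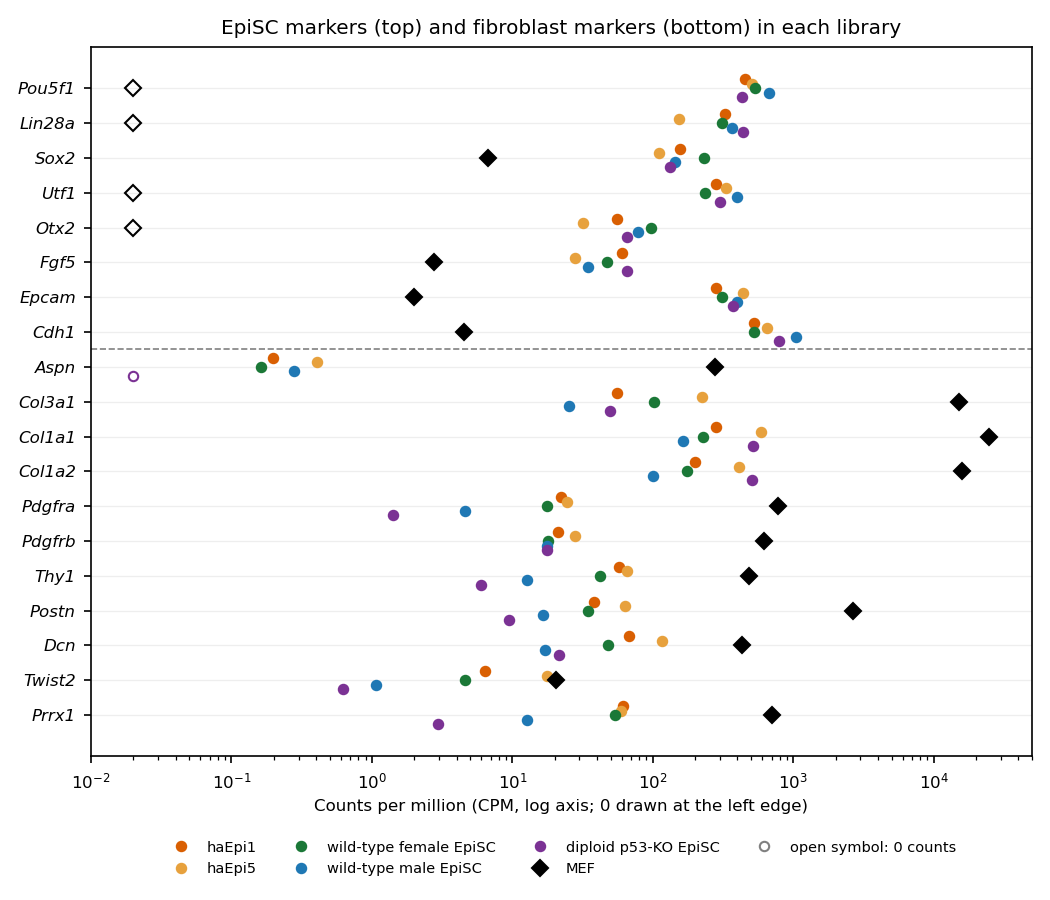
Level of EpiSC markers (upper rows) and fibroblast markers (lower rows) in each EpiSC library and in MEF, in CPM on a log axis, 1 point per library; a level of 0 is drawn as an open symbol at the left edge. EpiSC points lie right of MEF for each EpiSC marker and left of MEF for each fibroblast marker, and among the fibroblast markers the male and diploid p53-KO libraries often lie lowest, as for Prrx1 at 12.8 and 2.97 CPM.

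Across all genes, more passed the test in the direction of lower levels in EpiSC than of higher levels. Of 21104 genes tested, 3106 (14.7%) were called at an adjusted p under 0.05 (edgeR), 1252 higher (5.93%) and 1854 lower (8.79%) in EpiSC. The median log2 fold change of all genes tested was 0.11. Among the called genes, 148 had no read in MEF and 33 had no read in any EpiSC library. Protein-coding genes made up most of the calls, with 1152 higher and 1744 lower of 16219 tested, and long non-coding RNA genes gave 53 higher and 70 lower of 2245. DESeq2 called 2921 of the 3106 in the same direction. A single MEF library stands behind every value: its spread is taken to be that of the other cell types, and an exact permutation test of 5 libraries against 1 could not go below p = 0.333 (two-sided). The count fell to 68 (41 higher, 27 lower), all among the 3106, when only the 6 wild-type libraries of the 4 cell types were fitted. List counts below are to be read beside the 5.93% higher and 8.79% lower of all genes, and a difference from these shares was not tested for any list. Where a list below has 0 members called in a direction by edgeR, 0 to 2 of its members had an unadjusted p under 0.05 in that direction, DESeq2 called 0 to 2 and limma on log2(FPKM + 1) called 0 or 1.

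**Figure D2:**
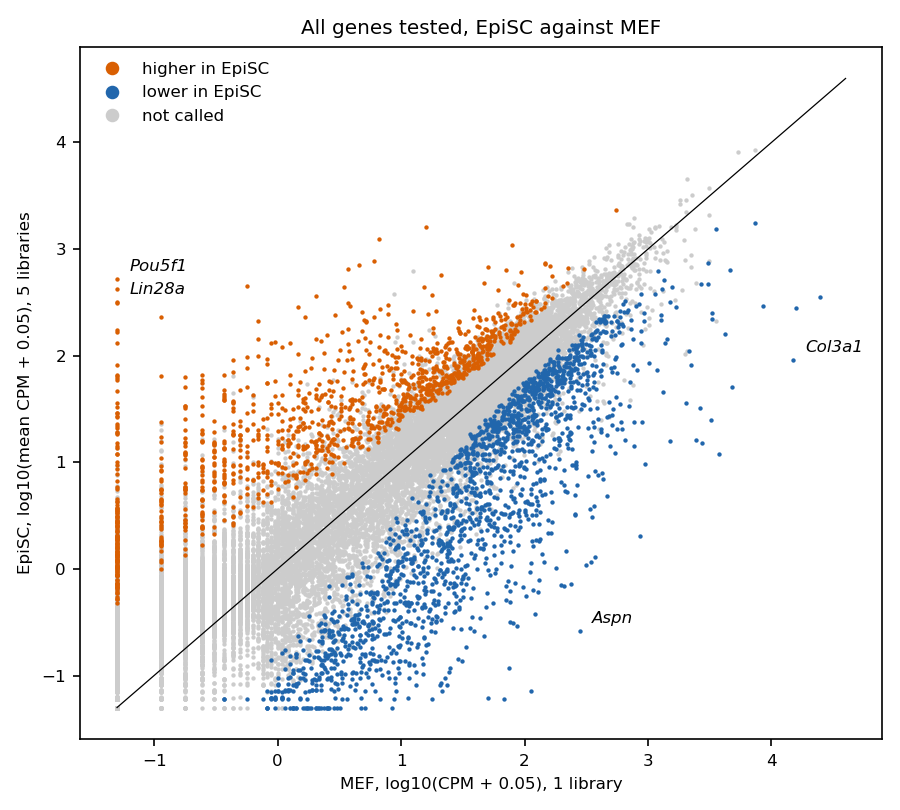
Mean EpiSC level (vertical axis, log10 of CPM + 0.05, 5 libraries) against the level in the single MEF library (horizontal axis, same scale) for all 21104 genes tested, with genes called higher and lower in EpiSC coloured and the diagonal marking equal levels. The 148 called genes without a read in MEF stand at the left edge, with Pou5f1 and Lin28a at the top of that column, and Aspn and Col3a1 lie far below the diagonal.

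The pluripotency network was higher in EpiSC. Of 16 core pluripotency genes tested, 10 were called higher and 0 lower, with a median log2 fold change of 7.49, or 7.16 with genes unread in MEF at their bound. Their summed level was 2126 to 2834 CPM in EpiSC, against 15.68 CPM in MEF. L1td1, which encodes an RNA-binding protein of pluripotent cells, averaged 421.5 ± 33.8 CPM in EpiSC (SD, n = 5), against 0 counts in MEF. Utf1, which encodes a chromatin factor of undifferentiated cells, had 282, 333, 235, 394 and 301 CPM in EpiSC, against 0 counts in MEF. The EpiSC libraries differed little among themselves for either gene, and the difference from MEF was at least 11.09 for L1td1 and at least 10.65 for Utf1 on the log2 scale. Sall4, a zinc finger factor of the same network, averaged 132 ± 29.1 CPM in EpiSC, against 0 counts in MEF. Sox2, the partner of Oct4 on DNA, had 157, 111, 233, 144 and 132 CPM in EpiSC, against 6.75 CPM in MEF, and rose by 4.52 ± 0.63 (log2; adjusted p = 0.00232). Nanog, a homeodomain factor, had 20.6, 52.9, 76.1, 23 and 63.4 CPM in EpiSC, against 0.321 CPM in MEF, and rose by 7.17 ± 1.22 (adjusted p = 0.0052). Per transcript length, Utf1 (mean 245 FPKM) and Pou5f1 (225 FPKM) stood above Sox2 (73.6 FPKM) and Nanog (20.5 FPKM) in EpiSC.

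Genes of the post-implantation epiblast were mostly higher in EpiSC, and genes of the naive state were called at about the share of all genes. Of 18 post-implantation epiblast genes tested, 12 were called higher and 1 lower (median log2 fold change 6.94, 6.72 with bounds). Of 15 naive pluripotency genes, 1 was called higher and 1 lower (6.67% each, against 5.93% and 8.79% of all genes). Their median was 2.84, with 11 positive and 4 negative. The difference between the lists was not tested. Otx2, a homeobox gene of the anterior epiblast, had 55.8, 31.8, 97.4, 78.7 and 65.2 CPM in EpiSC, against 0 counts in MEF, a difference of at least 8.41 (log2). Fgf5, a widely used marker of primed cells, had 60.1, 28.0, 47.0, 34.5 and 65.5 CPM in EpiSC, against 2.76 CPM in MEF (log2 fold change 4.08 ± 0.79, adjusted p = 0.00917). Both were above MEF in 5 of 5 EpiSC libraries. Pou3f1 (213 ± 53.4 CPM), Zic2 (209 ± 48.8 CPM) and Dnmt3b (778 ± 308 CPM), the de novo DNA methyltransferase, were called higher in EpiSC, against 0.643, 5.14 and 5.98 CPM in MEF. Sfrp2, which encodes a secreted Wnt antagonist, was the exception: it averaged 24.0 ± 11.9 CPM in EpiSC, against 600.1 CPM in MEF, and was called lower. Among naive genes, Fgf4 averaged 62.1 ± 34.5 CPM in EpiSC, against 0 counts in MEF. Zfp42 (Rex1), a naive marker, had a mean of 1.5 CPM in EpiSC, against 0 counts in MEF, and did not pass the edgeR test (adjusted p = 0.106; 0.0145 in DESeq2). On counts simulated with edgeR's own fitted dispersions, DESeq2 made 102 false calls, against 5 by edgeR. A call by DESeq2 alone was taken as weaker, although that simulation may favour edgeR. Klf4, a reprogramming factor that fibroblasts also use, averaged 6.37 ± 4.36 CPM in EpiSC, against 38.8 CPM in MEF (adjusted p = 0.039). Its call was lost without the female (adjusted p = 0.0733), the male (0.0561) or the diploid p53-KO EpiSC library (0.0514), or the wild-type EpiLC library (0.0505). These lists hold genes that define the cell types, so their direction follows from how they were chosen.

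Several genes of the Nodal pathway were called higher in EpiSC. Of 13 genes tested, 6 were called higher and 0 lower, with a median log2 fold change of 0.762, against 0.11 over all genes. The 6 were the ligand gene Nodal, the inhibitors Lefty1 and Lefty2, the co-receptor Tdgf1 (Cripto), the receptor Acvr2b and the Smad partner Foxh1. Nodal had 52.4, 55.2, 18.2, 60.9 and 48.4 CPM in EpiSC, against 0 counts in MEF, at least 7.93 higher on the log2 scale. Lefty1 had 537, 928, 270, 163 and 340 CPM in EpiSC, against 0.514 CPM in MEF (log2 fold change 9.75 ± 1.74, adjusted p = 0.00638). Tdgf1 averaged 229 ± 104 CPM in EpiSC and had 1 read in MEF, a log2 ratio of 11.80 with a counting interval of 9.32 to 17.10. All 3 genes were above MEF in every EpiSC library, and Lefty1 was highest in haEpi5 and lowest in the male library. The Lefty2 call was lost without haEpi5 (adjusted p = 0.0578), the diploid p53-KO library (0.0512) or either EpiLC library (0.0508 and 0.0512). Smad2 (49.2 CPM in EpiSC, 77.6 CPM in MEF) and Smad3 (64.2 CPM in EpiSC, 103 CPM in MEF), the transducers, were not called by edgeR; DESeq2 called Smad3 lower (adjusted p = 0.0365).

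The calls in the FGF family were all of ligands. Of 15 genes, 5 ligands were called higher in EpiSC (Fgf4, Fgf5, Fgf8, Fgf15 and Fgf17), 3 ligands lower (Fgf2, Fgf10 and Fgf18) and no receptor passed the test. Fgf17 averaged 26.8 ± 16 CPM and Fgf15 28.9 ± 11.3 CPM in EpiSC, against 0 counts in MEF for both. Fgf2, which is added to EpiSC cultures in common practice, averaged 1.68 ± 0.77 CPM in EpiSC, against 23.5 CPM in MEF (log2 fold change -3.79 ± 0.69, adjusted p = 0.00696). Fgfr1, a receptor gene, averaged 290 CPM in EpiSC, against 543.5 CPM in MEF (adjusted p = 0.0756), and was called only without either EpiLC library (0.033 and 0.0332). Among 15 primitive streak genes Eomes and Nodal were called higher (Eomes not without both lines labelled haploid, adjusted p = 0.0517), and Gsc (0.212 CPM in EpiSC, 2.18 CPM in MEF) was called lower. T (brachyury) had 1.64, 0.806, 46.2, 0.112 and 0.371 CPM in EpiSC, against 0.386 CPM in MEF, so only the female library was high and EpiSC lay on both sides of MEF. The Gsc call was lost without haEpi1 (adjusted p = 0.0936), haEpi5 (0.0579), the female (0.0575) or the diploid p53-KO library (0.0855), or without either EpiLC library (0.0528 and 0.0541) or the diploid ESC library (0.0536), and without both lines labelled haploid (0.12). The Fgf8 call was lost without haEpi1 (0.0582), haEpi5 (0.0595), the female (0.0556) or the diploid p53-KO library (0.0687), or without either ESC library (0.0509 and 0.053), and without both lines labelled haploid (0.0786).

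Epithelial genes were higher in EpiSC almost throughout. Of 24 junction and polarity genes tested, 22 were called higher and 0 lower, and in every one all EpiSC libraries lay above MEF, which held for 30.1% of all genes tested. The median log2 fold change was 6.08 (5.92 with bounds). The list holds known epithelial genes and was chosen with earlier results known, so its direction follows from that choice. Cdh1, which encodes E-cadherin of the adherens junction, had 525, 649, 522, 1050 and 797 CPM in EpiSC, against 4.5 CPM in MEF (log2 fold change 7.30 ± 0.79, adjusted p = 0.000742). Epcam, the gene of an epithelial adhesion molecule, had 283, 438, 311, 398 and 374 CPM in EpiSC, against 1.99 CPM in MEF (7.5 ± 0.84, adjusted p = 0.000866). For both genes every EpiSC library exceeded MEF by far, and the male library was highest for Cdh1. Tight junction genes were called too: Cldn6 averaged 285 CPM in EpiSC, against 1.41 CPM in MEF, and Ocln 34.0 ± 9.52 CPM in EpiSC, against 2 reads in MEF. Esrp1, the epithelial splicing regulator, averaged 144 ± 34.2 CPM in EpiSC, against 0.643 CPM in MEF. The exceptions were the keratin pair of simple epithelia. Krt8 had 552, 1110, 377, 580 and 472 CPM in EpiSC, against 12.4 CPM in MEF (adjusted p = 0.0644), and Krt18 had 338, 689, 222, 323 and 337 CPM in EpiSC, against 8.68 CPM in MEF (adjusted p = 0.0666). Both keratins were highest in haEpi5, all EpiSC libraries lay above MEF, and both were called when either ESC library was left out (adjusted p = 0.0113 and 0.0123 for Krt8, 0.00685 and 0.00744 for Krt18), as well as by DESeq2 (3.23e-05 and 5.53e-05).

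Mesenchymal transcription factors were lower in EpiSC where they passed the test. Of 30 tested, 17 were called lower and 0 higher, with a median log2 fold change of -3.31, and 26 had every EpiSC library below MEF, which held for 31% of all genes. Here too the direction follows from how the list was chosen. Twist1, a regulator of the epithelial-mesenchymal transition, had 15.5, 6.97, 9.09, 1.51 and 1.36 CPM in EpiSC, against 134 CPM in MEF (log2 fold change -4.28 ± 1.02, adjusted p = 0.0214). Snai2 (Slug) had 5.78, 7.6, 4.6, 1.29 and 1.85 CPM in EpiSC, against 40.2 CPM in MEF (-3.25 ± 0.75, adjusted p = 0.0188). All EpiSC libraries lay below MEF for both genes, and the male and diploid p53-KO libraries were lowest. Osr1 and Osr2, zinc finger factors of embryonic connective tissue, averaged 0.958 ± 0.699 and 0.206 ± 0.125 CPM in EpiSC, against 58.7 and 18.8 CPM in MEF. Tcf21 had no read in any EpiSC library, against 4.69 CPM in MEF. Prrx1, a limb and craniofacial mesenchyme factor, had 61.1, 59.5, 53.5, 12.8 and 2.97 CPM in EpiSC, against 709.5 CPM in MEF. Its EpiSC values fell into a higher set of 3 libraries and a lower set of 2, and it did not pass the test (log2 fold change -4.22 ± 1.57, adjusted p = 0.101), although it did without either ESC library (0.0401 and 0.0436). Twist2 likewise ran from 17.6 CPM in haEpi5 down to 0.618 CPM in the diploid p53-KO library, against 20.3 CPM in MEF (adjusted p = 0.466).

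Collagen genes held 0.190% to 0.320% of all counts in the EpiSC libraries, against 7.18% in MEF (7.168% to 7.192%, exact Clopper-Pearson interval). Of 39 collagen chain genes tested, 24 were called lower in EpiSC and 0 higher, with a median log2 fold change of -3.89. Col1a1, which encodes the main chain of type I collagen, had 283, 585, 227, 163 and 520 CPM in EpiSC, against 24760 CPM in MEF (log2 fold change -6.12 ± 1.48, adjusted p = 0.023). The call was lost without haEpi1 (adjusted p = 0.0524), the female library (0.0534) or both lines labelled haploid (0.0943). The chains of type VI collagen, a beaded microfibril of connective tissue, showed a larger fold difference: Col6a3 had 15.8, 21.2, 15.2, 4.7 and 2.9 CPM in EpiSC, against 3750 CPM in MEF (-8.29 ± 1.16, adjusted p = 0.00237). All EpiSC libraries lay far below MEF for both genes. Col14a1, of a fibril-associated collagen, averaged 0.637 ± 0.384 CPM in EpiSC, against 210 CPM in MEF, and had among the smallest adjusted p of the list (7.89e-05). Among basement membrane chains, Col4a1 stood at 288 CPM in EpiSC, against 1687 CPM in MEF (adjusted p = 0.0276), a call lost without haEpi5 (0.0548), the female (0.0567), the male library (0.0529) or both lines labelled haploid (0.0726), and Col18a1 at 452 CPM in EpiSC, against 340 CPM in MEF, was not called. The cartilage chain gene Col2a1 averaged 58.0 CPM in EpiSC, against 23.3 CPM in MEF, and was not called.

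Other matrix genes were also lower in EpiSC where they passed the test. Of 41 proteoglycan, elastic fibre and matricellular genes, 26 were called lower in EpiSC and 0 higher (median log2 fold change -3.63). Eln, the gene of elastin, had 2.34, 1.32, 1.73, 2.07 and 2.47 CPM in EpiSC, against 854 CPM in MEF (-8.74 ± 0.51, adjusted p = 7.89e-05), with EpiSC libraries close together and far below MEF. Ogn (osteoglycin) averaged 0.965 ± 1.34 CPM in EpiSC, against 179 CPM in MEF. Fn1, the gene of fibronectin, remained abundant in EpiSC at 2990, 1710, 1640, 1150 and 1340 CPM, against 7363 CPM in MEF (-2.06 ± 0.49, adjusted p = 0.0205). Sparc, a collagen-binding protein gene, averaged 635 ± 192 CPM in EpiSC, against 4592 CPM in MEF (-2.85 ± 0.46, adjusted p = 0.00411). Not every member differed: Cyr61, a matricellular target of serum and YAP signalling, had 223, 351, 120, 405 and 297 CPM in EpiSC, against 242.5 CPM in MEF, and Ctgf had 135, 209, 67.5, 254 and 276 CPM in EpiSC, against 147.5 CPM in MEF. For both, EpiSC libraries lay on either side of MEF and the adjusted p was 0.875 and 0.831.

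Genes that process and degrade the matrix were lower in EpiSC where they passed the test. Of 23 genes of collagen processing and crosslinking, 12 were called lower and 0 higher (median log2 fold change -2.11). Serpinh1, the collagen chaperone HSP47, had 351, 656, 321, 493 and 529 CPM in EpiSC, against 2686 CPM in MEF (-2.52 ± 0.52, adjusted p = 0.0118), and Loxl1, a crosslinking enzyme gene, averaged 33.4 ± 21.9 CPM in EpiSC, against 702 CPM in MEF. Of 26 proteases and inhibitors, 11 were called lower and 0 higher (median -2.52), among them Mmp19 at 3.37 ± 2.30 CPM in EpiSC, against 81.0 CPM in MEF. Of 19 integrins, 7 were called lower and 1 higher (36.8% and 5.26%, against 8.79% and 5.93% of all genes, median -0.542). Itga11, a collagen receptor subunit, averaged 3.56 ± 2.60 CPM in EpiSC, against 340 CPM in MEF (-6.58 ± 1.00, adjusted p = 0.00322). Itga3, the subunit of a laminin receptor, was the 1 called higher, with 501, 817, 314, 589 and 651 CPM in EpiSC, against 20.9 CPM in MEF (4.78 ± 0.66, adjusted p = 0.00215). Itgb1, the shared beta subunit, averaged 923 CPM in EpiSC, against 1323 CPM in MEF, and was not called.

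Contractile genes gave fewer calls when any 1 EpiSC library was left out. Of 19 genes of the actin cytoskeleton and serum response, 17 had every EpiSC library below MEF, against 31% of all genes. Of the same 19, 7 were called lower and 0 higher (median log2 fold change -1.38). That is 36.8% lower, against 8.79% lower and 5.93% higher of all genes. The count of calls was 2 without haEpi1, 3 without haEpi5, 2 without the female library, 2 without the diploid p53-KO library and 5 without the male library. Cnn2, which encodes the actin-binding protein calponin 2, had 149, 293, 118, 254 and 264 CPM in EpiSC, against 723 CPM in MEF (-1.75 ± 0.45, adjusted p = 0.0292), and lost the call without haEpi1 (0.0547) or both lines labelled haploid (0.0672). Acta2, the smooth muscle actin gene of activated fibroblasts, had 37.2, 177, 37.6, 61.2 and 203 CPM in EpiSC, against 1981 CPM in MEF. All EpiSC libraries lay below MEF for both genes, but Acta2 was not called (adjusted p = 0.0755) except without either ESC library (0.00771 and 0.00855). Srf, the gene of the serum response factor, averaged 90.2 CPM in EpiSC, against 94.2 CPM in MEF (adjusted p = 0.897).

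Promoters of this contractile list are shown because the serum response factor binds a short element, the CArG box, in muscle and cytoskeletal genes. Of the 19 members 17 had a RefSeq promoter, and 6 of these (35.3%) held a CArG box in the 250 bases before the start, against 482 of all 32851 promoters (1.47%). The list was put together from known serum response targets, so this share describes its choice. The 6 were Cnn2, Myl9 and Vcl, which were called lower, and Fhl1, Fhl2 and Srf, which were not. The element, in capitals and found on the strand of the gene, began 56 bases before the start of Cnn2 (chr10:79988350-79988599, plus strand), 161 before Myl9 (chr2:156775214-156775463, plus strand) and 227 before Vcl (chr14:20929148-20929397, plus strand). Srf itself (chr17:46556163-46556412, minus strand) held it at 82 and 62 bases before the start.
Cnn2: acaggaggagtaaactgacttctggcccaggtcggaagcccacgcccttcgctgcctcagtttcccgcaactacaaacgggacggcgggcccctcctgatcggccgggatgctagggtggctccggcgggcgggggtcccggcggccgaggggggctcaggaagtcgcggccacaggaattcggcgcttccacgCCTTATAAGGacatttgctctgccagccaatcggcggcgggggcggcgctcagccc
Myl9: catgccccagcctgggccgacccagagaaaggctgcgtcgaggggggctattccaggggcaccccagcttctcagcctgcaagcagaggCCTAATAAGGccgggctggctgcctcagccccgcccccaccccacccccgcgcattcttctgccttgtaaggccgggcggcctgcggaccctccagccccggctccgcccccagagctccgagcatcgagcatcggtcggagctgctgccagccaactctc
Vcl: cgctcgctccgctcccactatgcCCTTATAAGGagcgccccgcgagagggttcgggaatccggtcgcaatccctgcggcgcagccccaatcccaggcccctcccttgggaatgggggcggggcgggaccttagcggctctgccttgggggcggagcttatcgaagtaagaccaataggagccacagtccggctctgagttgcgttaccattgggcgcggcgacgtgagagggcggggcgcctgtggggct
Srf: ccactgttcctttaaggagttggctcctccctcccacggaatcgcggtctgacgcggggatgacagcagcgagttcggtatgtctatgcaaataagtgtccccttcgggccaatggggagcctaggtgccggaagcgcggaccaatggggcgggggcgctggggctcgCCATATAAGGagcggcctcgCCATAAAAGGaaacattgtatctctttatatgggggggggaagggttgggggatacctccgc
The calls of Myl9 were lost without haEpi1 (adjusted p = 0.059), the female (0.062), the male (0.0582) or the diploid p53-KO library (0.0541), and those of Vcl without haEpi1 (0.0721), haEpi5 (0.0609), the female (0.0596) or the diploid p53-KO library (0.0571). Without both lines labelled haploid both were lost (0.0811 for Myl9, 0.12 for Vcl).

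Receptors, growth factors and surface proteins of fibroblasts gave 17 members called lower and 1 higher of 36 (median log2 fold change -3.40). Pdgfra, the receptor for platelet-derived growth factor that marks fibroblasts, had 22.1, 24.4, 17.6, 4.59 and 1.42 CPM in EpiSC, against 777 CPM in MEF (-5.79 ± 1.02, adjusted p = 0.00607). Pdgfrb averaged 20.4 CPM in EpiSC, against 620 CPM in MEF (adjusted p = 0.000183). Igf1, the gene of insulin-like growth factor 1, had 0.648, 1.04, 0.595, 0.28 and 2.66 CPM in EpiSC, against 314 CPM in MEF (-8.24 ± 0.82, adjusted p = 0.000486). These 3 genes were below MEF in every EpiSC library, and Pdgfra was lowest in the male and diploid p53-KO libraries. Lifr and Il6st, the receptor subunits for LIF, the cytokine of naive ESC culture, averaged 5.38 and 86.1 CPM in EpiSC, against 132 and 1023 CPM in MEF, and both were called lower. Igfbp2, an IGF-binding protein gene, was called higher, with 771, 467, 666, 877 and 692 CPM in EpiSC, against 162 CPM in MEF (2.10 ± 0.41, adjusted p = 0.00902).

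**Figure D3:**
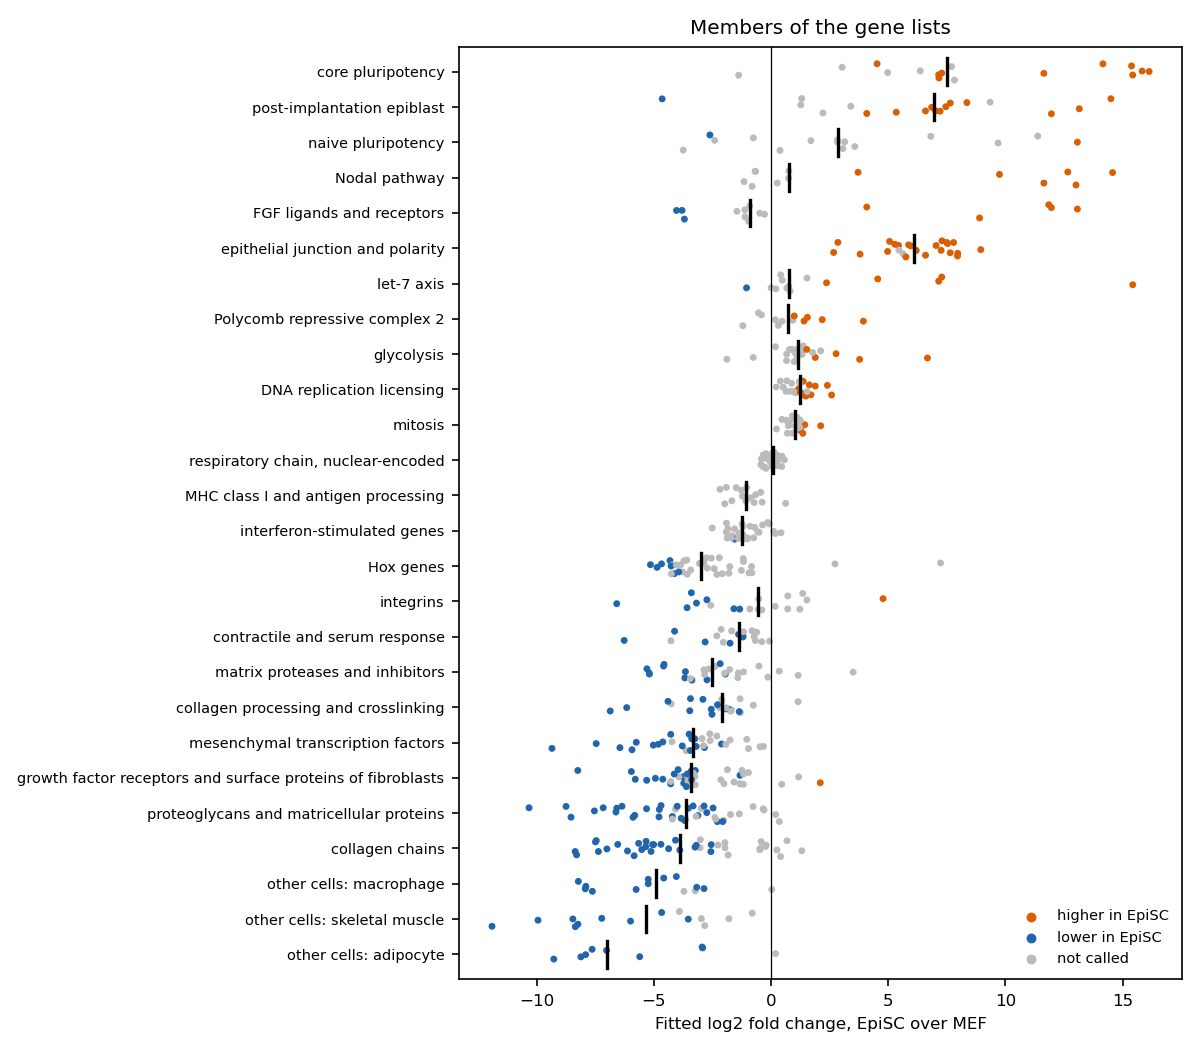
Fitted log2 fold change, EpiSC over MEF, of each tested member of the gene lists (1 point per gene, coloured by call); positive values mean higher in EpiSC. Black bars are list medians, which lie between 6 and 8 for the core, post-implantation and epithelial lists, below -3 for mesenchymal factors, receptors, proteoglycans and collagens, and at 0.0673 for the respiratory chain.

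The MEF library also held transcripts of cell types other than fibroblasts. Of 14 skeletal muscle genes, 9 were called lower in EpiSC and 0 higher, and the summed level was 11.91 to 50.23 CPM in EpiSC, against 865.5 CPM in MEF. Myog, a regulator of muscle differentiation, had 0, 0, 0.0541, 0.0559 and 0 CPM in EpiSC, against 112 CPM in MEF, and the embryonic myosin gene Myh3 averaged 0.650 CPM in EpiSC, against 198 CPM in MEF. Of 14 macrophage genes, 11 were called lower, with a summed level of 20.33 to 118.6 CPM in EpiSC, against 1438 CPM in MEF. Lyz2, the lysozyme gene of macrophages, had 13, 67.3, 8.55, 21.3 and 8.22 CPM in EpiSC, against 892 CPM in MEF (adjusted p = 0.0103, and 0.0629 in DESeq2), and C1qa averaged 0.264 ± 0.166 CPM in EpiSC, against 81.1 CPM in MEF. Of 9 adipocyte genes, 8 were called lower, with a summed level of 30.37 to 51.65 CPM in EpiSC, against 391.6 CPM in MEF. Adipoq, the adiponectin gene, had 1 read over all EpiSC libraries and 11.3 CPM in MEF. In bulk samples fewer cells of a type and less RNA per cell cannot be told apart. Endothelial genes gave 0 higher and 2 lower of 14, and cartilage and bone genes 0 higher and 3 lower of 15. Extraembryonic endoderm genes gave 0 higher and 4 lower of 12, trophoblast genes 3 higher and 0 lower of 12, and keratinocyte genes 2 and 2 of 10. Over all genes, 5.93% were called higher and 8.79% lower, and a difference from these shares was not tested. Ibsp (bone) lost its call without any 1 EpiSC library (adjusted p = 0.0592 to 0.0662), as did Afp (extraembryonic endoderm, 0.0651 to 0.0963). Esx1 (trophoblast) lost its call without haEpi1 (0.0589), the female (0.0636), the male (0.0627) or either EpiLC library (0.052 and 0.0523). The endothelial count was 1 without haEpi1, haEpi5, the female, the diploid p53-KO or the wild-type EpiLC library, and the keratinocyte count of lower members was 1 without haEpi1, the female or the male library. Among 15 neural and glial genes 2 were called higher (0 without haEpi1, the female or the diploid p53-KO library, 1 without haEpi5 or the male library, 4 without either ESC library) and 3 lower (1 without haEpi1, haEpi5 or the male library), and Gfap was the member with the smallest adjusted p, at 0.349 ± 0.177 CPM in EpiSC, against 11.4 CPM in MEF. The adipocyte count was 5 without the female library. Outside the lists, the muscle genes Mymk, Myl1 and Cav3 were called lower, with 2, 3 and 1 reads over all EpiSC libraries, against 21.5, 23.7 and 8.74 CPM in MEF. Cacng1, a calcium channel subunit gene of muscle, had 0 reads in EpiSC, against 5.08 CPM in MEF, a log2 difference bounded at -4.92, and its call was lost in DESeq2 (adjusted p = 0.204). The part of these other cells in the contrast was not tested.

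Transcripts of fibroblast genes were measurable in the EpiSC libraries, at levels that differed between them. As a percentage of the MEF level, the median of 25 mesenchymal transcription factors with at least 5 CPM in MEF was 12.2%, 11.2% and 10.3% in haEpi1, haEpi5 and the female library, and 2.76% and 3.33% in the male and the diploid p53-KO library. These members were kept for their level in MEF, which favours values below it, so only the EpiSC libraries are compared with each other here. The median of 33 receptor and surface genes was 12.5%, 16.1%, 8.15%, 4.08% and 5.17% in the same order. Both lines labelled haploid and the wild-type female library were thus higher than the wild-type male and the diploid p53-KO library. Both lines labelled haploid were highest for each of these sets of genes. Whether ploidy, p53 or another difference between the lines lies behind this order was not tested. The median of 32 collagens spread less, at 5.18%, 4.28%, 4.40%, 2.25% and 4.17%. For 10 skeletal muscle genes it was 0.566%, 0.436%, 1.32%, 0.229% and 0.652%, and for 13 macrophage genes 1.47%, 7.55%, 0.959%, 2.38% and 0.668%, with haEpi5 apart from the rest. Thy1, the surface glycoprotein gene of many fibroblasts, had 57.6, 65.2, 41.8, 12.8 and 5.99 CPM in EpiSC, against 484 CPM in MEF, and Dcn (decorin) had 68.0, 117, 47.7, 17.1 and 21.5 CPM in EpiSC, against 429 CPM in MEF. Without both lines labelled haploid, a setting chosen after seeing the data, the calls numbered 1781 (725 higher, 1056 lower), against 3106 with them. Whether other cells in the EpiSC cultures carried these transcripts was not tested.

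**Figure D4:**
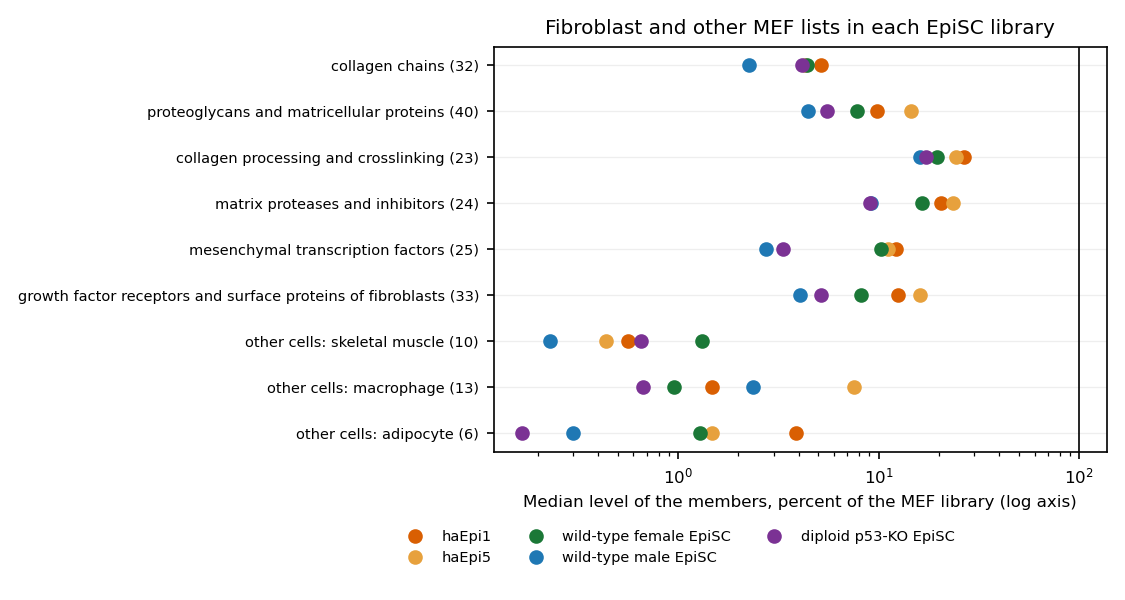
Median level of the members of fibroblast and other lists in each EpiSC library as a percentage of the MEF library (log axis; number of members with at least 5 CPM in MEF in parentheses, 1 point per library, vertical line at the MEF level). The male and diploid p53-KO libraries lie left of the others for mesenchymal transcription factors, at 2.76% and 3.33%; members were kept for their level in MEF, so the distance to the MEF line is no result.

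Hox genes, which give cells their position along the body axis, were low in EpiSC. Of 37 tested, 7 were called lower (18.9%) and 0 higher, against 8.79% and 5.93% of all genes. The median log2 fold change was -3.00, and 31 had every EpiSC library below MEF. The called genes were Hoxa10, Hoxc4, Hoxc5, Hoxc10, Hoxc11, Hoxc12 and Hoxd11. The summed level was 101, 74.4, 102, 10.9 and 28.8 CPM in EpiSC, against 463 CPM in MEF, so the male library was lowest. Hoxc10, a gene of lumbar and hindlimb tissue, had 1.69, 2.02, 1.35, 0.224 and 0.124 CPM in EpiSC, against 20.9 CPM in MEF (-4.26 ± 0.94, adjusted p = 0.0153). The count of calls was 4 without haEpi5, 11 without either ESC library and 2 without both lines labelled haploid. Hoxa10 lost its call without any 1 of the EpiSC or EpiLC libraries (adjusted p = 0.0501 to 0.0889), Hoxc5 without haEpi1 (0.0572), Hoxc11 without haEpi5 (0.0547) or the female library (0.0643), and Hoxd11 without haEpi5 (0.0539) or the male library (0.052). Without both lines labelled haploid, Hoxa10, Hoxc5, Hoxc12 and Hoxd11 were not called (0.0698 to 0.0982).

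**Figure D5:**
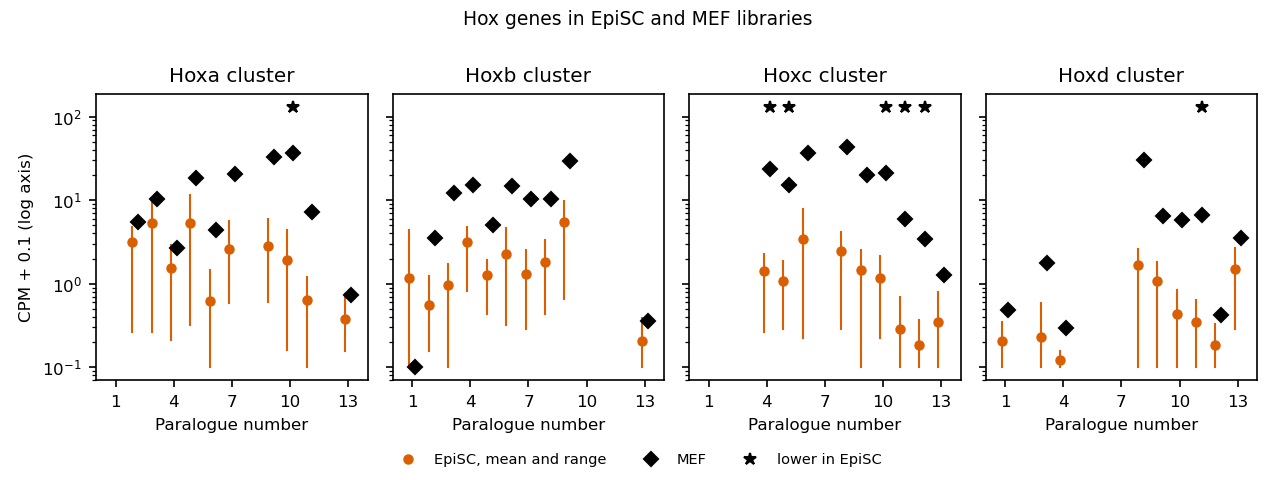
Level of Hox genes by cluster and paralogue number, in CPM + 0.1 on a log axis: circles and lines give the mean and range of the 5 EpiSC libraries, diamonds the MEF library and stars the genes called lower in EpiSC. MEF lies above the whole EpiSC range for most genes drawn, as for Hoxc10, with an EpiSC range of 0.124 to 2.02 CPM, against 20.9 CPM in MEF.

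RNA-binding proteins of the let-7 axis were higher in EpiSC. Of 14 genes, 5 were called higher and 1 lower (median log2 fold change 0.786). Lin28b averaged 131 ± 35.1 CPM in EpiSC, against 0.836 CPM in MEF (7.28 ± 0.72, adjusted p = 0.000486), and Trim71, a let-7 target that encodes an RNA-binding ubiquitin ligase, averaged 229.5 ± 80.7 CPM in EpiSC, against 1.61 CPM in MEF (7.15 ± 0.77, adjusted p = 0.000705). Mycn, an oncogene of the embryo, had 82.4, 53, 218, 61.1 and 47.1 CPM in EpiSC, against 3.92 CPM in MEF. Igf2bp1 was called higher too, at 461 CPM in EpiSC, against 89.1 CPM in MEF. Tut7, one of the terminal uridylyl transferases that act with Lin28a, was called lower, at 56.8 ± 9.44 CPM in EpiSC, against 117 CPM in MEF, but not without both lines labelled haploid (adjusted p = 0.0601). Hmga2, another let-7 target, averaged 422 CPM in EpiSC, against 249 CPM in MEF, and was not called.

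Among chromatin regulators, 5 of 12 Polycomb repressive complex 2 genes were called higher in EpiSC and 0 lower (median 0.705). Epop, an accessory subunit gene of embryonic cells, averaged 60.3 ± 10.1 CPM in EpiSC, against 3.92 CPM in MEF (3.94 ± 0.42, adjusted p = 0.000677), and Jarid2 188 ± 35.4 CPM in EpiSC, against 41.4 CPM in MEF (2.19 ± 0.36, adjusted p = 0.00473). The catalytic subunit gene Ezh2 had 116, 114, 143, 138 and 178 CPM in EpiSC, against 51.9 CPM in MEF (1.41 ± 0.37, adjusted p = 0.0299; 0.0532 without the female library). All 5 EpiSC libraries were above MEF for these 3 genes. The count was 3 without the female library. Of 12 DNA methylation genes, Dnmt3b and Tet1 were called higher (16.7%) and 0 lower, against 5.93% and 8.79% of all genes. Dnmt1 averaged 372 CPM in EpiSC, against 249 CPM in MEF, and was not called. Tet1, which encodes a methylcytosine oxidase, had 175, 47.6, 179, 184 and 150 CPM in EpiSC, against 24.4 CPM in MEF (adjusted p = 0.0374). It lost the call without haEpi1 (0.0628), the female (0.0621), the male (0.0586) or the diploid p53-KO library (0.0628).

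Glucose and lactate transporter genes were higher in EpiSC, and no gene of the respiratory chain passed the test. Of 22 glycolysis genes, 5 were called higher in EpiSC and 0 lower (median log2 fold change 1.15), and of 31 nuclear-encoded respiratory chain genes 0 were called in either direction (median 0.0673; edgeR, lowest adjusted p 0.291, with 0 at an unadjusted p under 0.05 and 0 called by DESeq2 or limma). The glucose transporter gene Slc2a3 had 1480, 952, 1110, 1910 and 2650 CPM in EpiSC, against 15.9 CPM in MEF (6.67 ± 1.15, adjusted p = 0.00553). Slc2a1 had 1430, 424, 628, 1610 and 1330 CPM in EpiSC, against 78.9 CPM in MEF (3.78 ± 0.90, adjusted p = 0.0212), and the lactate transporter gene Slc16a1 averaged 191 CPM in EpiSC, against 66.4 CPM in MEF (1.53, adjusted p = 0.0132). All EpiSC libraries exceeded MEF for the 3 transporters, and haEpi5 was lowest for both glucose transporters. The enzymes of the pathway, such as Pkm (2872 CPM in EpiSC, 1812 CPM in MEF), were mostly not called. The 5 glycolysis calls were 22.7% of the list, against 5.93% called higher over all genes. The glycolysis count was 3 without haEpi1, the female, the male or the diploid p53-KO library.

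Replication genes were higher in EpiSC in part. Of 26 genes of replication licensing, 10 were called higher and 0 lower (median log2 fold change 1.22), and in 25 every EpiSC library lay above MEF. Mcm10, a replication factor gene of this list, had 113, 124, 114, 115 and 132 CPM in EpiSC, against 22.6 CPM in MEF (2.41 ± 0.35, adjusted p = 0.00279), with EpiSC libraries close together. Of 22 mitosis genes, 5 were called higher and 0 lower (median 1.04), among them the checkpoint kinase gene Bub1 at 187.5 ± 48.4 CPM in EpiSC, against 43.1 CPM in MEF. The 5 mitosis calls were 22.7% of that list, against 5.93% called higher over all genes. The mitosis count was 8 without either EpiLC library. Of 18 G1 genes, Ccne1, the gene of cyclin E1, was called higher (108 ± 15.5 CPM in EpiSC, 37.8 CPM in MEF). Its edgeR call was lost without both lines labelled haploid (adjusted p = 0.0789). Cdkn2c (1.78 ± 0.90 CPM in EpiSC, 29.6 CPM in MEF) and Rbl2 (4.73 ± 1.62 CPM in EpiSC, 28.0 CPM in MEF), both brakes on the cell cycle, were called lower. These G1 calls were 5.56% higher and 11.1% lower, near the 5.93% and 8.79% of all genes.

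Imprinted genes, of which 1 parental copy is active, gave a few calls in both directions, and whether their shares differ from those of all genes was not tested. Of 20 paternally expressed genes, 2 were called higher (10%, against 5.93% of all genes; 1 without the female, the diploid p53-KO, an EpiLC or an ESC library) and 5 lower (25%, against 8.79%). Dlk1, which encodes a Notch-like protein of embryonic mesenchyme, had 9.77, 11, 19.2, 1.85 and 5.68 CPM in EpiSC, against 953.5 CPM in MEF (-6.65 ± 0.76, adjusted p = 0.000958). Igf2, a fetal growth factor gene, had 2.09, 2.19, 1.89, 3.08 and 25.6 CPM in EpiSC, against 431 CPM in MEF (-5.96 ± 1.14, adjusted p = 0.00874). Snrpn ran the other way, with 170, 189, 158, 41.8 and 89.8 CPM in EpiSC, against 3.66 CPM in MEF (5.14 ± 0.94, adjusted p = 0.00694). Of 18 maternally expressed genes, 3 were called higher (16.7%) and 2 lower (11.1%; 1 without haEpi1, haEpi5, the female or the male library, 4 without the haploid ESC library). The non-coding RNA gene H19 had 1000, 84.3, 93.5, 38.4 and 245 CPM in EpiSC, against 8491 CPM in MEF (-4.86 ± 1.41, adjusted p = 0.0455). All EpiSC libraries lay below MEF, haEpi1 was highest, and the call was lost without haEpi5 (0.0834), the female (0.0861), the male (0.0688) or the diploid p53-KO library (0.0914).

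Genes of the interferon response and of antigen presentation mostly had negative fold changes, but few passed the test. Of 34 interferon-stimulated genes 0 were called higher and 1 lower (median log2 fold change -1.23), against 5.93% and 8.79% of all genes. Of 15 genes of MHC class I presentation 0 were called in either direction by edgeR (median -1.07). Among them 1 was lower at an unadjusted p under 0.05, DESeq2 called 0 and limma called 1 lower. Fold changes were negative in 31 of the 34 and 14 of the 15. Every EpiSC library lay below MEF in 16 and 12 of them, against 31% of all genes. The summed interferon-stimulated level was 1098, 2319, 1042, 966 and 314 CPM in EpiSC, against 2512 CPM in MEF, so haEpi5 came near MEF and the diploid p53-KO library was lowest. Stat2, a transducer of interferon signals, was the member called lower (52.4 ± 17.2 CPM in EpiSC, 153 CPM in MEF, adjusted p = 0.0405), and lost the call without haEpi1 (0.0758), the female (0.0742), the male (0.0658) or the diploid p53-KO library (0.0736). Heparan sulfate 3-O-sulfotransferases, the family of the gene in the study's title, gave 1 call of 5 genes tested: Hs3st1, lower at 0.643 ± 0.228 CPM in EpiSC, against 7.07 CPM in MEF. Hs3st3b1 had 3.59, 1.15, 9.15, 0.336 and 2.84 CPM in EpiSC, against 9.13 CPM in MEF, with EpiSC libraries on both sides, and was not called (adjusted p = 0.446). Of 10 glypicans and syndecans, the core proteins that carry heparan sulfate, 4 were called lower and 0 higher. That is 40% lower, against 8.79% lower and 5.93% higher of all genes. Of these genes 2 were lower without haEpi5, the female, the male or the diploid p53-KO library.

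Transcription factor families, as annotated in the deposited table, are given by their counts of calls, without a test between families or against all genes. Of 1313 factors tested, 92 were called higher and 143 lower in EpiSC, beside 5.93% higher and 8.79% lower over all genes. Homeobox genes, which include the Hox genes above, gave 6 higher and 25 lower of 180. The bHLH genes gave 4 and 18 of 82, and T-box genes 1 and 5 of 14, while POU genes gave 4 higher and 1 lower of 13. Zinc finger genes of the C2H2 class were balanced, with 30 higher and 31 lower of 530. Among long non-coding RNAs, Platr10, named for pluripotency-associated expression, had 19.3, 54.9, 39.8, 40.6 and 23.6 CPM in EpiSC, against 0 counts in MEF, at least 7.53 higher on the log2 scale. Mir99ahg, the host of a microRNA cluster that includes a let-7 member, averaged 0.113 ± 0.177 CPM in EpiSC, against 8.29 CPM in MEF, and was called lower (adjusted p = 0.0189, but 0.41 in DESeq2).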

How the data were processed

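Polyadenylated RNA of 10 libraries (5 EpiSC, 2 EpiLC, 2 ESC, 1 MEF) was sequenced. The authors deposited a table of raw counts and a table of FPKM values for 54532 genes. Reads were aligned with HISAT2 2.0.5 to mm10 and counted with featureCounts 1.5.0-p3, per the submitters' processing notes; annotation release and strand setting: not given in the sources used here. Overlapping genes and near-identical copies may therefore share or split reads. Deposited FPKM values followed from the counts, gene lengths and 1 scaling per library. Columns were mapped to samples by name, and all 10 were used.

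Counts were fitted with edgeR 4.0.16 (filterByExpr, TMM factors, glmQLFit with 1 mean per cell type, glmQLFTest of EpiSC minus MEF) in R 4.3.3, with Benjamini-Hochberg adjustment over 21104 genes and a threshold of 0.05. The fit left 6 residual degrees of freedom, and the single MEF library was taken to vary like the others. Standard errors of log2 fold changes were derived from the test, as the absolute fold change over the square root of its F statistic. DESeq2 1.42.0 and limma 3.58.1 on log2(FPKM + 1) and log2(FPKM + 0.1) were alternatives, beside other scalings, filters, sample sets and leaving out libraries. Counts for EpiSC against MEF were simulated with edgeR's fitted dispersions, which may favour edgeR, and changes were placed only in genes averaging 5 CPM or more. Of 19853 genes tested there, edgeR recovered 88 of 100 changed by 4 on the log2 scale and 23 of 100 changed by 2, with 5 false calls. DESeq2, on 21104 genes, recovered 96 and 69, with 102 false calls. Levels are TMM-scaled CPM; counts of 0 were bounded at 3 counts per library; intervals are 95% and cover counting error only.

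Members and gene lists (41 lists, 798 of 812 entries matched) were chosen with earlier results of these data known. Named genes are the 4 markers, the 12 protein-coding genes per direction with the largest fitted fold change at 5 CPM or more, the 10 most abundant by FPKM per side, up to 4 called members per list and direction, 5 long non-coding genes per direction and list members on both sides of MEF. Other genes were chosen after their values were seen: Sox2, Nanog, Fgf5, Zic2, Zfp42, Cdh1, Epcam, Krt8, Krt18, Cldn6, Prrx1, Twist1, Twist2, Snai2, Thy1, Dcn, Fn1, Pdgfrb, Il6st, Lifr, Acvr2b, Fgfr1, Smad2, Smad3, Col4a1, Col18a1, Col2a1, Itgb1, Acta2, Vcl, Srf, Fhl1, Fhl2, Hoxc5, Hoxc10, Hs3st3b1, Myh3, Igf2bp1, Hmga2, Dnmt1, Pkm, Slc16a1, Gapdh and Trp53. Promoters are from RefSeq (GRCm38.p6). A comparison of promoter content over all genes was not made, because under 80% of them matched a promoter. A gene of the lists that was counted with its list is not reported here by itself.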

Additional observations from a re-analysis of the deposited data

Results flagged for a closer look

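In 24 of 170 genes and lists examined, 1 of the 5 EpiSC libraries lay far from the other 4 by Dixon's test (CPM are given). That test flags about 1 in 20 groups of normal values by chance. Some of these genes were named after their values were seen or for lying on both sides of MEF, so the count is not compared with that rate. In haEpi5, Lyz2 stood at 67.3 (8.22 to 21.3 in the other EpiSC libraries) and the median of the macrophage list at 2.02 (0.448 to 0.559), against 892 and 38.5 in MEF. Krt8 at 1110 (377 to 580), Krt18 at 689 (222 to 338), Col6a2 at 36.0 (4.82 to 13.7), Actg2 at 7.77 (0.0559 to 1.30), Ptx3 at 11.1 (0.974 to 2.14) and Nnat at 337 (92.0 to 152) were also high in haEpi5, and Tet1 at 47.6 (150 to 184) was low there. In haEpi1, H19 at 1000 (38.4 to 245), Itga9 at 12 (5.82 to 7.20) and Gpc3 at 140 (34.4 to 60.0) were high.

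In the female library, the primitive streak gene T at 46.2 (0.112 to 1.64), Vrtn at 117 (47.0 to 54.9), Mycn at 218 (47.1 to 82.4), Col2a1 at 117 (33.4 to 55.0) and Meg3 at 1590 (460 to 702) were high. In the male library, Tjp3 at 71.3 (21.2 to 29.3) and Lmod1 at 12.3 (2.44 to 4.61) were high, and Rps2 at 1040 (1260 to 1340) and Hmga2 at 166 (440 to 545) low. In the diploid p53-KO library, Igf2 at 25.6 (1.89 to 3.08), Itga11 at 8.09 (1.45 to 2.84) and Gapdh at 212 (34.9 to 78.3) were high.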

How the results depend on the processing

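The 3106 calls (1252 higher, 1854 lower in EpiSC) stayed within 1.5 times under other scalings, filters and tools, except that DESeq2 gave 1945 and the fit of EpiSC and MEF alone 1911 higher, and limma without a filter gave 3583 lower. With wild-type libraries only 68 were called (41 higher, 27 lower; 4278 at an unadjusted p under 0.05). Without both lines labelled haploid, chosen after seeing the data, 1781 were called (725 higher, 1056 lower). Leaving out 1 EpiSC, EpiLC or ESC library gave 2253 to 3580 calls (903 to 1478 higher, 1350 to 2132 lower), lowest without the diploid p53-KO EpiSC library. The share called higher was 40.3%, and 36.7% with DESeq2 size factors, 45.8% with upper quartile factors and 21.2% with limma without a filter. The median of all genes was 0.21 with upper quartile factors, against 0.11. Of the 175 called genes named by the rule, values under alternatives kept direction and call in 3003 cases and lost the call in 477, and 0 changed direction. Of those losses, 155 came from the fit of wild-type libraries only, so most of the 175 lost the call there. With p53 label and ploidy as covariates, 2475 genes were called, 2179 of the 3106 calls were kept, and 32 of the 175 lost the call. The losses given gene by gene above cover neither that setting nor the fit of wild-type libraries only. Srf, not called, changed sign to 0.035 with upper quartile factors and 0.0113 in EpiSC and MEF alone, and Meg3 to 0.0545 with p53 label and ploidy as covariates; the cause was not tested. No paired analysis was possible because the MEF group holds 1 library and replicate numbers only name samples. With 1 MEF library, a gene peculiar to that culture and a gene of fibroblasts cannot be told apart.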

Other observations

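Some of the most abundant genes called higher in EpiSC were ribosomal protein genes with near-identical copies elsewhere in the genome, and reads may be divided between the copies. The pairs did not behave alike. Rps2 had 1320, 1260, 1340, 1040 and 1260 CPM in EpiSC, against 6.56 CPM in MEF. Its copy Rps2-ps13 had 205, 289, 184, 1180 and 159 CPM in EpiSC, against 1310 CPM in MEF. Together they had 1530, 1540, 1530, 2220 and 1420 CPM in EpiSC, against 1320 CPM in MEF, so the sum differed far less than Rps2 alone. Rpl34 had 16.3, 16.5, 14.9, 19.4 and 192 CPM in EpiSC, against 9.58 CPM in MEF, and its copy Rpl34-ps1 had 391, 332, 397, 446 and 178 CPM in EpiSC, against 416 CPM in MEF. The diploid p53-KO library was the one high for Rpl34 and low for its copy. Rps18 was called higher, at 695, 785, 709, 495 and 735 CPM in EpiSC, against 50.5 CPM in MEF, and its copy Rps18-ps3 had 2.06 to 9.28 CPM in EpiSC, against 11.6 CPM in MEF, far less than that difference. Rpl21 (not called) and its copy Rpl21-ps15 together had 190, 208, 157, 59.7 and 180 CPM in EpiSC, against 59.8 CPM in MEF, so 4 EpiSC libraries lay above MEF and the male library level with it. How reads were divided between copies was not tested.

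Other abundant genes by length-scaled level were called in both directions. Mif, the gene of a cytokine-like tautomerase, averaged 874 FPKM in EpiSC, against 313 FPKM in MEF (not called without both lines labelled haploid, adjusted p = 0.0602), and Hsp90aa1, a chaperone gene, 572 FPKM in EpiSC, against 143 FPKM in MEF. Ptn (pleiotrophin) averaged 4.55 FPKM in EpiSC, against 732 FPKM in MEF, and Fstl1, a secreted glycoprotein gene of mesenchyme, 49.4 FPKM in EpiSC, against 691 FPKM in MEF. Of 15 germline genes 0 were called higher and 1 lower by edgeR: Ddx4, a germ cell helicase gene, at 0.290 ± 0.254 CPM in EpiSC, against 2.64 CPM in MEF (adjusted p = 0.0305), a call lost without haEpi1 (0.0608), haEpi5 (0.0584), the female (0.0607) or the male library (0.0576), and without both lines labelled haploid (0.114).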
